A study of Mus musculus with 2 samples.

Results

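The S100 proteins are a family of small calcium-binding proteins, and 8 of their genes are described here in adipose tissue macrophages (ATM): S100a1, S100a4, S100a6, S100a8, S100a9, S100a10, S100a11 and S100a13. They were chosen by name, with earlier results of these data known. After mapping the Ensembl identifiers of the deposited table to mouse gene symbols, all 8 were found among the 20330 genes of the table. ATM are macrophages of fat, sorted here by FACS for F4/80 and CD11b from visceral fat of C57BL/6 mice after 12 weeks of high-fat diet, which was started at an age of 4 weeks. The KO library came from hMRP8cre+;Hif-1αfl/fl;ApoE-/- mice and the WT library from hMRP8cre-;Hif-1αfl/fl;ApoE-/- mice, so both genotypes are labelled ApoE-/- and carried the floxed Hif-1α allele. In the KO mice, Cre recombinase was driven by the promoter of the human S100A8 (MRP8) gene, used mainly by neutrophils, monocytes and their marrow precursors, so deletion in a macrophage depends on whether it or its precursor used that promoter. That promoter is of the human gene, and mouse S100a8 is a separate gene. There was 1 library per genotype, and the labels do not say whether RNA of several mice was pooled. With nothing to measure the spread between samples, the differences below are given as values, without a test.

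S100 proteins carry EF-hands, helix-loop-helix motifs that bind calcium, and most work as dimers that change shape with calcium and then bind a partner protein. S100a8 and S100a9 form the heterodimer calprotectin, which is stored in the cytosol of neutrophils and monocytes, binds zinc and manganese, and acts as an alarm signal through Toll-like receptor 4 once released. S100a10 and S100a11 bind annexins at membranes, S100a4 binds the non-muscle myosin heavy chain, S100a6 binds the calcyclin-binding protein, S100a1 is best known from heart muscle and S100a13 takes part in the release of proteins that lack a signal peptide. All 8 genes lie on mouse chromosome 3. On GRCm38 with GENCODE M21, S100a1 (ENSMUSG00000044080, chr3:90511034-90514392, minus strand) and S100a13 (ENSMUSG00000042312, chr3:90514435-90524581, plus strand) stand head to head. They are followed by S100a4 (ENSMUSG00000001020, chr3:90603771-90606045, plus), S100a6 (ENSMUSG00000001025, chr3:90612882-90624181, plus), S100a8 (ENSMUSG00000056054, chr3:90668978-90670035, plus) and S100a9 (ENSMUSG00000056071, chr3:90692632-90695721, minus). S100a11 (ENSMUSG00000027907, chr3:93520488-93526287, plus) and S100a10 (ENSMUSG00000041959, chr3:93555080-93564643, plus) lie farther along, next to each other. The comparison of the libraries asks how RNA levels in ATM differ once Hif-1α has been deleted by this Cre.

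Promoter sequences are shown for S100a8 and S100a9, the calprotectin genes, for S100a4 as the member with the smallest difference, and for the members that hold ACGTG, one form of the core bound by HIF-1, since Hif-1α was the gene deleted. They are RefSeq sequences on GRCm38.p6, read 5′ to 3′ on the strand of the gene, and 7 of the 8 members had an entry (all but S100a10). Positions count from 1 at the RefSeq start of transcription, with -1 just before it. GENCODE puts the start 93 bases earlier for S100a8, 62 earlier for S100a1 and 12 earlier for S100a6, so bases before the RefSeq start can lie in a GENCODE exon. Capitals mark TATAAA, the letters of the TATA box, in the first 3 stretches. The S100a8 stretch runs from -45 to -16 at chr3:90669026-90669055 on the plus strand, inside the first GENCODE exon. The others run from -130 to 20, at chr3:90695702-90695851 on the minus strand (S100a9) and chr3:90603640-90603789 on the plus strand (S100a4).
S100a8: ggccaagctttcctcTATAAAagcagctga
S100a9: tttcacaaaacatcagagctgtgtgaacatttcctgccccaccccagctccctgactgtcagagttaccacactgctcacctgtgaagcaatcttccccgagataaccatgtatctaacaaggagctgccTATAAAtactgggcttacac
S100a4: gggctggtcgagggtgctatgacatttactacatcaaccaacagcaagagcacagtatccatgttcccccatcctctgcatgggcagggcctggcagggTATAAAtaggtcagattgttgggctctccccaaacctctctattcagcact

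Farther up, from -200 to -94 at chr3:90668871-90668977, the S100a8 stretch below ends just before the GENCODE start. Capitals mark TTNNGNAA, a pattern bound by C/EBP factors.
S100a8 upstream: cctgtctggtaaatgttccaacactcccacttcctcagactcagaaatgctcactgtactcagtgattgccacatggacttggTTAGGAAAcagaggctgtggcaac

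Capitals mark ACGTG or its reverse complement CACGT in the next 2 stretches. The other form of the core, GCGTG, was not searched. In both they overlap as the palindrome CACGTG. The S100a6 stretch runs from -10 to 20 at chr3:90612884-90612913 and the S100a11 stretch from -250 to -151 at chr3:93520246-93520345, both on the plus strand.
S100a6: agcacacaagccagagtttcgagtCACGTG
S100a11: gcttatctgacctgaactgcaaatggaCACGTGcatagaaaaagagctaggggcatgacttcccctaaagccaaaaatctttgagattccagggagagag

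The last stretch holds the 42 bases between the GENCODE starts of S100a1, on the minus strand, and S100a13, on the plus strand, at chr3:90514393-90514434. By the RefSeq starts 104 bases lie between them. It is shown because these genes share it and differed in opposite directions.
S100a1 and S100a13: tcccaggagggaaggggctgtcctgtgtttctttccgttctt

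Motifs were searched on both strands in windows of 300 bases, from 250 before to 50 after the RefSeq start. ACGTG was found in 2 of the 7 member windows, S100a6 and S100a11, and in 19.6% of 32851 windows of the same length. TATAAA was found in 3 of 7, S100a4, S100a8 and S100a9, and in 13.6% of all windows. It began at -31 in S100a4 and -30 in S100a8, and at 1, on the RefSeq start itself, in S100a9. TTNNGNAA, a pattern bound by C/EBP factors of myeloid cells, was found in 2 of 7 and in 40.7% of all windows. It lay at -117 in S100a8 and at -236 and -130 in S100a9. GAGGAA, a pattern bound by the myeloid factor PU.1, was found in 3 of 7, S100a4, S100a8 and S100a11, and in 28.3% of all windows. These matches are letters in a window and not measured binding.

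Before the members were compared, the libraries were checked. FPKM, fragments per kilobase of transcript scaled to the mapped fragments of the library, is already divided by transcript length, so levels can be set side by side between genes. Depth, estimated from what a single fragment was worth in FPKM, was near 5860000 fragments in the WT library and 7470000 in the KO library. Hif1a was at 30.4 FPKM in WT against 20.97 in KO, a value for the whole gene that cannot show the deleted exon alone. Apoe was at 94.3 and 117 FPKM, so RNA of this gene was counted in both libraries labelled ApoE-/-, and whether it was intact cannot be read from a value for the whole gene. The sorting genes were present in both, with Adgre1 (F4/80) at 299 and 239 FPKM and Itgam (CD11b) at 127.9 and 127.7. Changes are given as log2(FPKM + 1), KO minus WT, and a gene was counted as changed at a 3-fold difference on this scale, which is 1.585. The filter on low values kept 10297 genes that reached 1 FPKM in a library, and of these 27.3% passed this threshold, 13.6% higher and 13.7% lower in KO.

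Some of the members, S100a4, S100a6, S100a10 and S100a11, were among the abundant transcripts of ATM, at ranks of 73 to 195 by FPKM across the libraries. S100a1, S100a8 and S100a9 ranked from 284 to 1181, and S100a13 was at rank 2100 in WT and 1077 in KO. The 8 members summed to 3854 FPKM in WT and 3997 in KO, which was 0.658% and 0.703% of all FPKM in the library. All 8 were above 1 FPKM in both libraries, so none entered the comparison through 1 library alone. As they had been chosen with earlier results of these data known, this describes the choice. S100a3, not among them, was listed at 0 in WT and was at 26.5 FPKM in KO. In WT the order was S100a4, S100a11, S100a10, S100a6, S100a1, S100a8, S100a9 and S100a13, from 1117 down to 33.5 FPKM. In KO it was S100a10, S100a4, S100a11, S100a6, S100a9, S100a8, S100a1 and S100a13, from 1144 down to 67.5 FPKM. Thus the highest 4 genes and the lowest gene were the same in both libraries. Between these groups S100a1 and S100a9 exchanged places, with S100a8 between them in both libraries. With 1 library per genotype, neighbours in either order cannot be separated from the spread between samples.

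**Figure D1:**
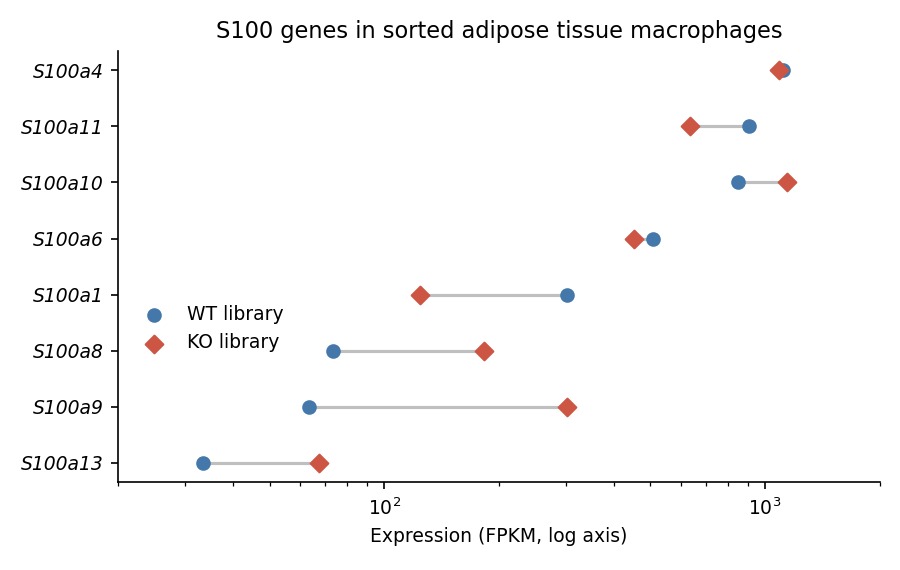
Expression of the 8 S100 genes in FPKM (log axis), with the WT library as circles and the KO library as diamonds joined by a line, 1 library each. S100a9 has the longest line, from 63.4 to 301 FPKM, and S100a4 the shortest, with 1117 in WT and 1088 in KO.

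Of the 8 members, 1 passed the 3-fold threshold, S100a9, which was higher in KO, and 0 were lower. That count is not above the 27.3% of all genes tested. At 2-fold, S100a8 was also higher and S100a1 was lower. S100a13 was just under it at 0.99, while its plain ratio was 2.01 and other pseudocounts or scalings put it past 2-fold, at 1.01 to 1.05. At this threshold 23.1% of all genes were higher and 22.5% lower, 45.6% in all. The median change of the members was 0.20, beside 0.03 over all genes, with 4 members above 0 and 4 below. One of those below was S100a4, whose sign turned under other scalings of the libraries. The share of genes past 3-fold fell with the level of expression, however, from 41.1% at a mean of up to 10 FPKM to 14.6% at 10 to 100 and 1.99% at 100 to 1000, with 3.16% above 1000. S100a1, S100a6, S100a8, S100a9, S100a10 and S100a11 all had a mean of 100 to 1000 FPKM, S100a13 one of 10 to 100, and S100a4 lay above 1000 FPKM. S100a8 and S100a9 were under 100 FPKM in WT and had such a mean only through KO.

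**Figure D2:**
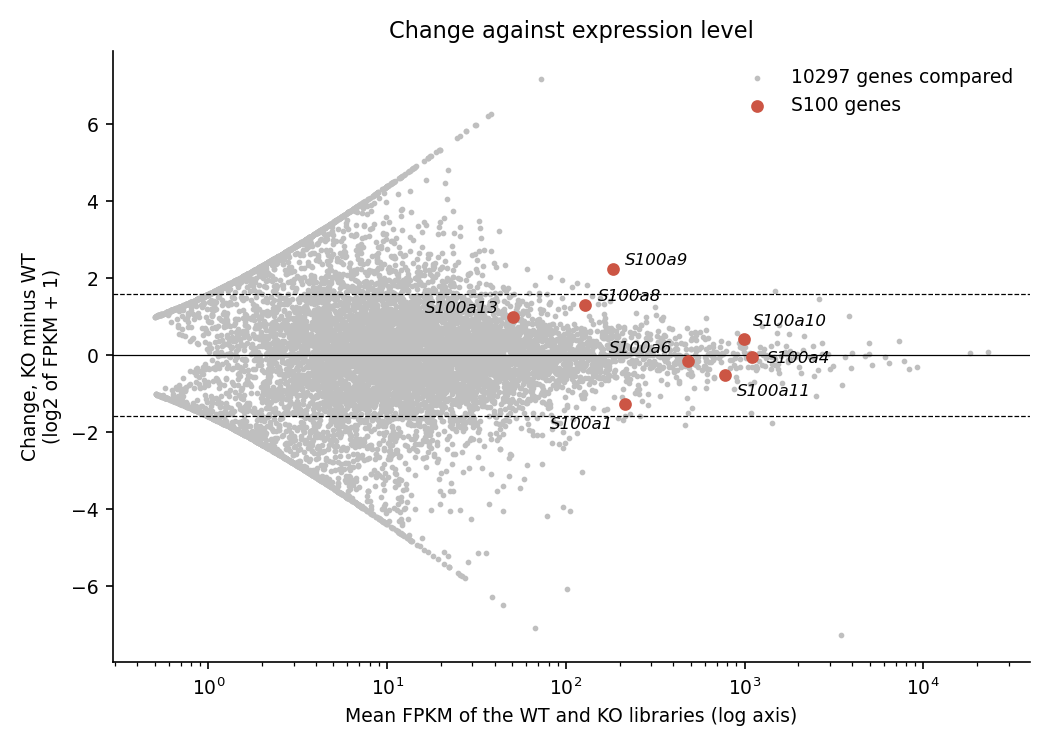
Change between the libraries on the log2(FPKM + 1) scale, KO minus WT, against the mean FPKM (log axis) for 10297 genes in grey and the 8 S100 genes in red. Dashed lines mark 3-fold. S100a9 lies above the upper line at 2.23, where few genes of its mean level are found, a level it reached through KO. The other 7 lie between the lines.

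S100a9, the larger partner of calprotectin, measured 63.4 FPKM in the WT library and 301 FPKM in the KO library. It was 4.75-fold higher in KO, a change of 2.23. An estimated 192 and 1160 fragments lay behind these values. By its mean it lay at 100 to 1000 FPKM, a range it reached through KO, being under 100 FPKM in WT. At a mean of 10 to 100 FPKM, 6.77% of 4239 genes were higher past 3-fold, and 9.87% of the 871 under 1000 nt. S100a9 had the largest rise of the 653 genes at a mean of 100 to 1000 FPKM. Of these 653 genes 4, 0.613%, were higher past 3-fold, all under 100 FPKM in WT. The others were Tbca, Mrpl23 and Mrps21 with changes of 1.89, 1.83 and 1.78. These 3 were picked out after their values had been seen. Tbca encodes a tubulin-folding cofactor, and Mrpl23 and Mrps21 encode mitochondrial ribosomal proteins. All 13 genes of this range that passed 3-fold in either direction had transcripts under 1000 nt, 5.26% of the 247 genes that short, with 1.62% higher, and S100a9 has a transcript of 515.5 nt by the median of its annotated forms. All 8 members have transcripts under 1000 nt.

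S100a8, the smaller partner, measured 73.3 FPKM (WT) and 182 FPKM (KO). It was 2.49-fold higher in KO, a change of 1.30 that did not reach 3-fold, on an estimated 209 and 662 fragments. In its range by mean FPKM 1.68% of 653 genes had a change at least as large in that direction, and 3.24% of the 247 with short transcripts. It too reached this range through KO, being under 100 FPKM in WT. At a mean of 10 to 100 FPKM, 15.1% of genes were higher past 2-fold, and 19.1% of those with short transcripts. Together S100a8 and S100a9 made up 137 FPKM in WT, 3.55% of the 8 members' sum, and 484 FPKM in KO, 12.1% of it. The other 6 members summed to 3717 FPKM in WT and 3513 in KO. S100a8 was above S100a9 in WT, at a ratio of 1.16, and below it in KO, at 0.605. In bulk RNA of sorted cells, a larger number of cells that express these genes and more RNA per cell cannot be told apart.

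S100a10 and S100a11, the annexin-binding members, differed little and in opposite directions. S100a10 was at 848 FPKM in WT against 1144 in KO, a change of 0.43, and 19.1% of genes at its level had a change at least as large in that direction, 17.0% of those with short transcripts. S100a11 was at 909 FPKM in WT against 636 in KO, a change of -0.52, which 15.2% of genes at its level reached, and 24.3% of the 247 with short transcripts. S100a10 forms a heterotetramer with annexin A2, whose gene Anxa2 was at 582 and 491 FPKM. The ratio of S100a10 to Anxa2 was 1.46 in WT and 2.33 in KO. S100a11 binds annexin A1, whose gene Anxa1 was at 143.7 FPKM in WT against 52.8 in KO, a change of -1.43.

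S100a4 and S100a6, tied to the cytoskeleton and to cell growth, were the members with the smallest differences. S100a4 was at 1117 FPKM in WT against 1088 in KO, a change of -0.04. Its sign turned under other scalings of the libraries, to 0.03 and 0.01, so no direction is given. S100a6 was at 507 FPKM in WT against 454 in KO, a change of -0.16. On this annotation, 302 of the 584 exon bases of S100a4 are shared with Gm42674, a gene model on the same strand that was not used here. No other member shared an exon base with another gene.

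S100a1 and S100a13, which stand head to head on opposite strands, differed in opposite directions. S100a1 was at 302 FPKM in WT against 124 in KO, 2.43-fold lower in KO, with a change of -1.27. In its range of expression 3.37% of 653 genes were lower by at least as much, and 7.29% of the 247 with short transcripts. S100a13 was at 33.5 FPKM in WT against 67.5 in KO, a change of 0.99, and 15.3% of 4239 genes at 10 to 100 FPKM had a change at least as large, as did 19.3% of the 871 with short transcripts. The S100a1 to S100a13 ratio was 9.01 in WT and 1.84 in KO. Neither gene passed 3-fold. Their estimated fragments ranged from 140 for S100a13 in WT to 1110 for S100a1 in WT.

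Of 10 other S100 genes, 9 had a row in the table and 7 of these were listed at 0 in both libraries: S100a2, S100a5, S100a7a, S100a14, S100b, S100g and S100z. S100a16 was at 0.910 FPKM in WT and listed at 0 in KO. S100a3, a gene of the same cluster known from hair follicles, was listed at 0 in the WT library and reached 26.5 FPKM in the KO library. These 9 genes together made up 0.910 FPKM in WT and 26.5 in KO, all of the latter S100a3. Of the other direct neighbours on the chromosome, Gm42674 was not analysed here. Chtop, a chromatin protein gene next to S100a1, was at 23.6 and 16.6 FPKM, a change of -0.48, while Pglyrp4, Tdpoz2 and Tchhl1 were listed at 0 in both libraries.

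Genes for receptors and co-receptors of released S100 proteins were compared next. Counts past 3-fold in this and the following lists stand beside the 13.6% of all genes that were higher and the 13.7% that were lower. Of 10 such genes 8 passed the filter on low values, and 0 of them passed 3-fold in either direction, with a median change of -0.21. Cd14, which helps present ligands to Toll-like receptor 4, was at 1060 FPKM in WT against 1095 in KO. Tlr4 itself was at 8.62 and 6.82 FPKM and its partner Ly96 (MD-2) at 27.9 and 25.6. Myd88, the adaptor below it, was at 21.6 and 54.6 FPKM, a change of 1.30 that was the largest of the list. Ager, which encodes RAGE, the receptor for advanced glycation end products, was listed at 0 in both libraries, as was Mcam. Cd36, a scavenger receptor, was at 288 and 418 FPKM, and Alcam, an adhesion molecule, at 13.1 and 5.36, a change of -1.15.

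Among 15 genes of intracellular partners, 13 passed the filter, 1 was higher past 3-fold and 0 were lower, with a median of -0.06. The one was Ppfibp1 (liprin-β1), a partner of S100a4, at 0.202 FPKM in WT against 3.23 in KO, a level at which many genes passed. It passed the filter on low values only through KO. Of the 12 partners at 1 FPKM or more in both libraries, 0 were higher past 3-fold and 0 were lower. Myh9, the myosin heavy chain bound by S100a4, was at 75.9 and 66.9 FPKM. Cacybp, which encodes the calcyclin-binding protein, was at 8.17 and 7.77 FPKM. Ahnak, a scaffold of the S100a10 and annexin A2 complex, was at 179 and 156 FPKM, and Plaur, the urokinase receptor, at 182 and 275. Fgf1, a cargo of S100a13, was at 2.57 and 5.06 FPKM.

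Other EF-hand proteins were set beside the family. Of 25 genes 23 passed the filter, 1 was higher past 3-fold and 2 were lower, where 27.3% of all genes passed in either direction, with a median of -0.28. Micu2, a regulator of the mitochondrial calcium uniporter, was listed at 0 in the WT library and reached 4.62 FPKM in KO. Cib1 was at 22.4 FPKM in WT and listed at 0 in KO, and Pef1 fell from 16.2 to 1.76 FPKM. Micu2 and Cib1 each passed the filter through 1 library alone. Of the 21 genes at 1 FPKM or more in both libraries, 0 were higher past 3-fold and 1 was lower, Pef1. Aif1, which encodes the macrophage protein IBA1, was at 205 and 79.3 FPKM, a change of -1.36, and Lcp1 (L-plastin) at 384 and 313 FPKM.

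Genes of myeloid transcription factors, C/EBP factors and PU.1 among them, were compared in the same way. Of 8 genes 6 passed the filter, with a median of 0.19. Cebpd was higher past 3-fold, at 4.40 FPKM in WT against 19.7 in KO, and 0 were lower. Among all genes at a mean of 10 to 100 FPKM, 6.77% were higher past 3-fold and 14.6% passed it in either direction. Cebpd, under 10 FPKM in WT, reached this range through KO. At a mean of up to 10 FPKM these shares were 20.9% and 41.1%. Cebpb was at 107.5 and 166 FPKM, a change of 0.62, and Cebpa at 37.2 and 37.6. Spi1, which encodes PU.1, was at 367 and 301 FPKM and Stat3 at 125 and 160. Cebpe, a factor of late granulocytes, was listed at 0 in both libraries.

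**Figure D3:**
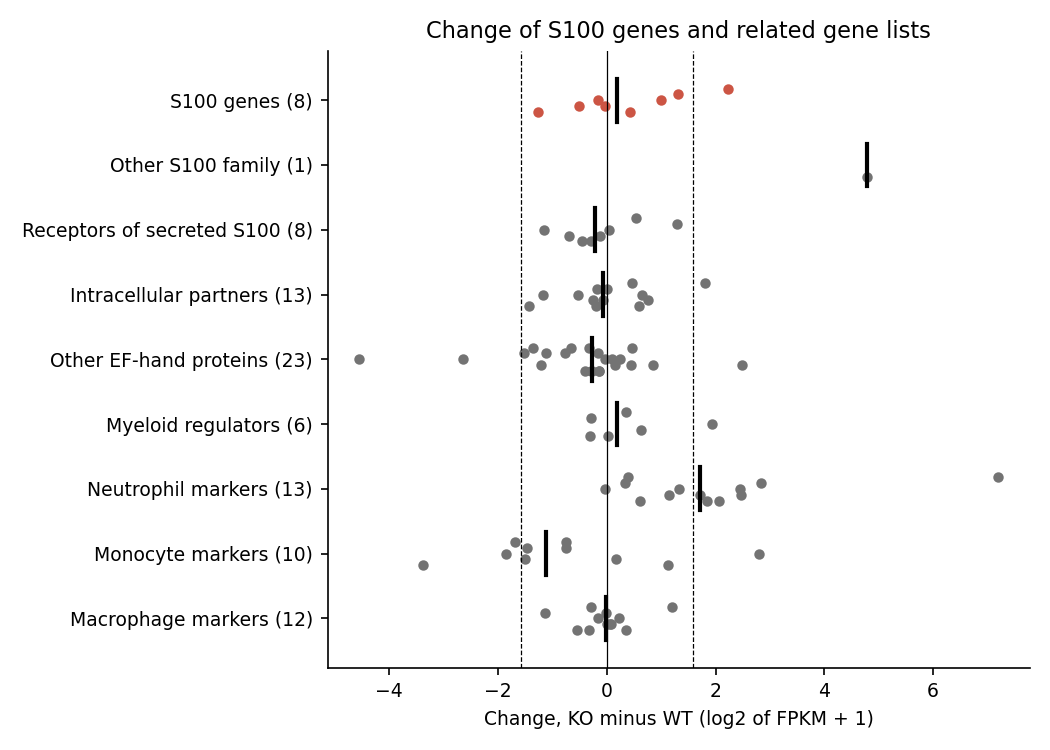
Change on the log2(FPKM + 1) scale, KO minus WT, of the genes that passed the filter in each list, 1 point per gene with the number in brackets, the list's median as a black bar and dashed lines at 3-fold. The S100 genes spread from -1.27 to 2.23 around a median of 0.20, and the neutrophil markers have a median of 1.72, which was 0.50 for those at 1 FPKM or more in both libraries, as 7 of the 13 passed the filter only through KO.

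Because S100a8 and S100a9 are abundant in neutrophils and monocytes, markers of these cells were set beside them. Of 22 neutrophil marker genes other than S100a8 and S100a9, 21 had a row and 13 passed the filter. Of the 13, 7 were higher past 3-fold and 0 were lower, with a median of 1.72 that was 0.50 if both libraries had to reach 1 FPKM. Of the 7, 6 were under 1 FPKM in WT and so passed the filter only through KO, and of the 6 markers at 1 FPKM or more in both libraries 1 was higher past 3-fold, Hdc. A mean of up to 10 FPKM was found for 9 of the 13, among which 6 were higher past 3-fold, as were 20.9% of all genes at that level. Their summed level was 79.9 FPKM in WT and 304 in KO, of which Stfa2l1, a stefin of neutrophils, took 145 FPKM in KO while it was listed at 0 in WT. The 7 that rose were Stfa2l1, Hdc, Trem1, Lcn2, Padi4, Ngp and Mpo. Lcn2 (lipocalin-2) rose from 0.960 to 9.79 FPKM and Trem1 from 0.941 to 12.8. Of the defining markers, Elane, Camp and Ltf were listed at 0 in both libraries. In KO Ngp and Mpo reached 2.61 and 2.29 FPKM from a listing of 0, Cxcr2 was at 5.83 and 7.96, and Csf3r at 15.5 and 24.1. The cells had been sorted for F4/80, a macrophage antigen that neutrophils lack, as well as CD11b. The part of neutrophil RNA in the S100a8 and S100a9 differences was not tested.

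**Figure D4:**
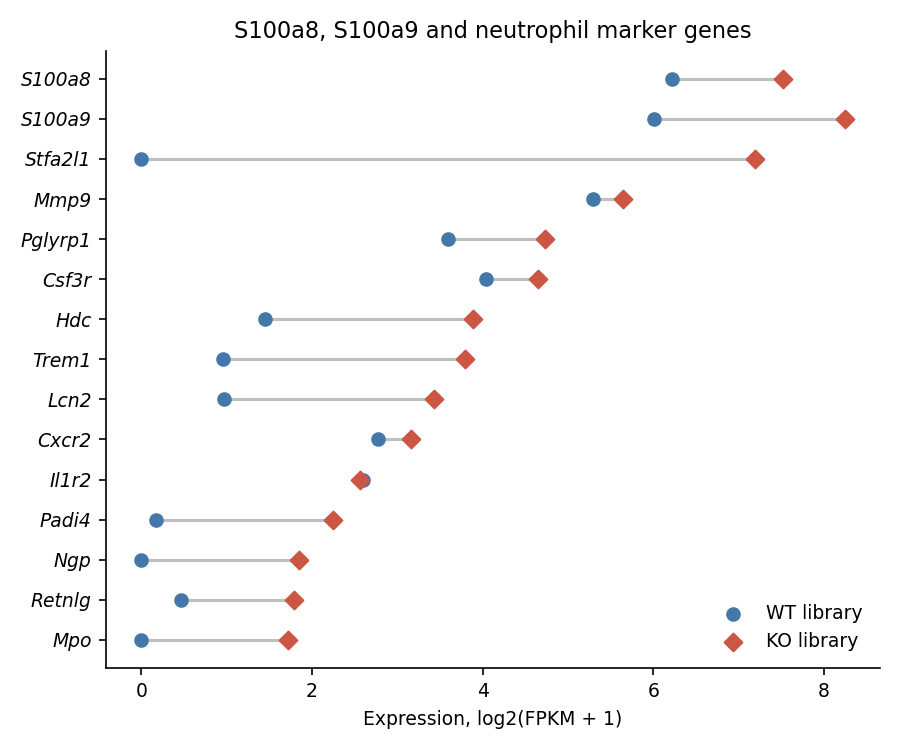
Expression as log2(FPKM + 1) of S100a8, S100a9 and the 13 neutrophil markers that passed the filter, with the WT library as circles and the KO library as diamonds, 1 library each. For 7 of the markers, those under 1 FPKM in WT, the filter itself placed KO to the right, and among the other 6 KO lies to the right except for Il1r2, with 5.07 FPKM in WT and 4.93 in KO.

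Monocyte markers were compared as well. All 10 passed the filter, 1 was higher past 3-fold and 3 were lower, beside 13.6% and 13.7% of all genes, with a median of -1.11. Of the 5 at 1 FPKM or more in both libraries, 1 was higher and 1 was lower. Thbs1 fell from 37.8 to 10.98 FPKM and Ms4a4c from 3.18 to 0.164, and Ly6c2 was at 9.39 FPKM in WT and listed at 0 in KO. Ccr2, the receptor by which monocytes leave the marrow, was at 29.4 and 9.78 FPKM, a change of -1.50. Plac8 rose from 1.58 to 16.96 FPKM. The 12 macrophage markers with a row had a median change of -0.01, whose sign turned under other scalings, and 0 of them passed 3-fold. Summed levels of the remaining marker lists were 6.50 FPKM in WT and 33.1 in KO for eosinophils, 0 and 1.03 for mast cells, 5.35 and 2.07 for T and NK cells, 2.75 and 6.46 for B cells and 125 and 140 for dendritic cells. They were 43.2 and 84.3 for fibroblasts, 5.83 and 1.60 for adipocytes, 14.6 and 16.1 for endothelial cells, 0 and 7.84 for mesothelial cells and 11.1 and 9.66 for red blood cells. Single genes held much of some of these sums. In the eosinophil list Alox15 was at 6.50 and 25.7 FPKM, and in the dendritic list Cd209a at 122 and 131. Dcn was at 35.0 and 62.3 FPKM in the fibroblast list, and Cidec at 5.83 in WT in the adipocyte list. The part of these cell types in the S100 differences was not tested.

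The genes closest to S100a8 and S100a9 in level were found by Euclidean distance over the log2(FPKM + 1) values of the 2 libraries. For S100a8 they were Naa38, Tmem37, Gnb2, Bola2 and Vkorc1, at distances of 0.06 to 0.33. Naa38, at 76.2 FPKM in WT against 180 in KO, was the closest. For S100a9 they were Fkbp2, Tmem37, Mrpl23, Ms4a6d and Bola2, at distances of 0.53 to 0.63. Fkbp2 was the closest of these, at 81.7 and 229 FPKM with a change of 1.48. The nearest gene was thus farther from S100a9 than from S100a8. Likeness over 2 libraries rests on 2 values per gene and is a description only.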

How the data were processed

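The authors deposited a single table of FPKM values, 1 per Ensembl gene and library. The submitters' processing notes name CASAVA 1.8.2, TopHat2 2.0.9, Cufflinks 2.2.1 and the mouse build mm9, whereas the annotation, strandedness and filters are not given in the sources used here. KO values are those of the column headed as mutant, KO being the only other library than WT. Of 20749 rows, 401 full repeats were dropped and 18 further rows of a repeated identifier were summed, leaving 20330 genes, 98.5% with a symbol. Transcript lengths came from GENCODE M21 and promoters from RefSeq, both on GRCm38 and not mm9. The length was the median over coding transcripts. Depth was taken from the smallest recurring FPKM times kilobases in genes with 1 transcript, 0.171 in WT and 0.134 in KO, as 1 fragment. Fragment numbers are estimates that cover counting error only, since PCR copies are not independent.

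The change was the difference of log2(FPKM + 1), which understates low genes, over 10297 genes with at least 1 FPKM in a library. No count model was used. The members and lists were chosen with earlier results of these data known. Named were the members, their lists, neighbours and the 5 nearest genes in level, and, chosen after their values were seen, the genes higher past 3-fold at the level of S100a9. Protein sequences were not analysed here. Some genes of the lists are counted but not reported here by name. Python 3.11.15 and pandas 2.3.3 were used. The procedure was also run on simulated data with less noise than the spread seen here, which checked the code only. Alternatives were a pseudocount of 0.1 or 0.01, other filters, scalings and thresholds, the plain ratio, and the larger row of a repeated identifier.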

Additional observations from a re-analysis of the deposited data

How the results depend on the processing

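No paired analysis was possible because WT and KO had 1 library each, so none could be left out either. With no replicate spread, a value was counted as moved at 1.5-fold. Among 172 values computed again, 52 came out the same, 105 differed within this allowance and 15 moved. The change of each member stayed within it under the 6 alternatives run for it. S100a9 lay between 2.23 and 2.30, S100a8 between 1.30 and 1.37, S100a1 between -1.28 and -1.21 and S100a13, on both sides of 2-fold, between 0.99 and 1.05. S100a4 turned sign under both scalings, as did the macrophage marker median, which reached 0.06.

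With a 2-fold threshold 2 members were higher and 1 was lower, and over all genes 2380 and 2314 were. Over all genes the counts, 1402 higher and 1413 lower at 3-fold, went to 429 and 447 where both libraries had to reach 1 FPKM and to 598 and 646 at a mean of at least 5 FPKM, since fewer genes were tested. The neutrophil median was 2.93 with a pseudocount of 0.1, 2.999 with 0.01, 0.39 with no filter and 0.50 with at least 1 FPKM in both libraries. The median of other S100 genes rested on S100a3 alone, which is listed at 0 in WT, and was 4.78, then 8.05 and 11.37 with the smaller pseudocounts and 0.00 with no filter. It gave no value with at least 1 FPKM in both libraries. Estimated fragments behind a member's value ranged from 140 to 4964. Across genes at a mean of 100 to 1000 FPKM the SD of the change was 0.832 for transcripts under 1000 nt and 0.628 for all lengths, and above 1000 FPKM it was 0.519 and 0.873.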
